A study of Chlorocebus aethiops with 12 samples.

Results

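The 10 genes described here encode secreted signals of the inflammatory response: the interleukins IL6 (NM_000600), IL11 (NM_000641), IL1A (NM_000575) and IL1B (NM_000576), the IL6-family cytokine LIF (NM_002309), and the chemokines CXCL8 (NM_000584), CCL2 (NM_002982), CXCL1 (NM_001511), CXCL2 (NM_002089) and CXCL3 (NM_002090). Members were chosen as 10 RefSeq records of the 32379 records or unnamed probes on the array, and every array probe carrying 1 of these records was taken, which gave 13 of the 41000 probes. LIF, CXCL2 and CXCL3 had 2 probes each and the other 7 genes had 1. The probes for IL6, CCL2, IL1A and IL1B were printed on 10 spots per array, and the remaining 9 probes on a single spot. The files give record IDs without gene names, so the 10 gene names are those of the member list, and other records are given by ID.

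RNA came from COS-1, an African green monkey kidney cell line, and was hybridised to a 1-colour human whole-genome array, so probes may match the monkey transcripts unequally, and levels of different probes were not set against each other. Cells were transiently transfected with V5-tagged CCRP of the mouse, a co-chaperone that binds nuclear receptors, and with human glucocorticoid receptor (GR) carrying a FLAG tag. The groups were Y30E-DEX and Y30E-DMSO, in which the receptor had glutamate in place of a tyrosine near its N terminus, and Y30F-DEX and Y30F-DMSO, in which it had phenylalanine there. From 40 h after transfection the cells received either the synthetic glucocorticoid dexamethasone (DEX) at 100 nM or its vehicle DMSO at 0.1%, for 6 h. Each group had 3 arrays. All 4 groups carried both plasmids, so cells without transfected receptor, and cells with an unmutated receptor, were not part of the comparison. The labels name no inflammatory stimulus for any group. The labels do not say whether replicates were separate cultures, and p-values then reflect only how far these arrays scatter, which may be technical. In bulk RNA of a transiently transfected line, a change in fewer cells and a smaller change in every cell cannot be told apart.

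Cytokines of the IL6 family, here IL6, IL11 and LIF, signal through a shared receptor subunit to STAT transcription factors. The 2 forms of IL1 (IL1A and IL1B) act upstream, on a receptor that activates NF-kappaB, and NF-kappaB and AP-1 in turn induce most of the genes in the list. CXCL8, CXCL1, CXCL2 and CXCL3 attract neutrophils and CCL2 attracts monocytes. The ligand-bound glucocorticoid receptor is known for repressing many of these genes by acting on NF-kappaB and AP-1 at their promoters, and for inducing proteins that restrain both.

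Between 60.5% and 67.0% of 43376 non-control spots per array were well above background, and the processed signal at the 75th percentile of an array was 706 to 876. The arrays lay on 3 slides of 4. All Y30E-DEX arrays shared slide 3 with the replicate 3 array of Y30E-DMSO, and all Y30F-DMSO arrays shared slide 1 with the replicate 1 array of Y30F-DEX. Slide 2 carried what remained, a pair of arrays each from Y30E-DMSO and Y30F-DEX. Its arrays had 65.3% to 67.0% of spots well above background, and those of slides 1 and 3 had 60.5% to 64.9%. All 4 records on the array from a list of markers of kidney and fibroblast-like lines were well above background on 12 of 12 arrays, with a summed signal of 331056 to 407484. Of 7 leukocyte and endothelial marker records, 4 were well above background on all arrays and 2 on none, with a summed signal of 489 to 633. The summed signals of these lists come from different probes and were not compared. None of the 5 tested leukocyte and endothelial probes passed for dexamethasone (limma, median log2 change -0.30 in Y30E cells and 0.19 in Y30F cells). An unadjusted p under 0.05 was found for 3 of them in Y30E and 2 in Y30F cells, against 3561 and 3298 of all 25570 tested probes. The part of these marker records in the results was not tested. With dexamethasone, 1.39% of all tested probes rose in Y30E cells and 1.27% in Y30F cells (limma). Of 10 probes for 8 records written down as glucocorticoid-induced, 9 rose in Y30E cells and 8 in Y30F cells. Among them NM_016084 (probe A_24_P348006) rose by 4.20 ± 0.10 and 4.25 ± 0.10 (log2, SE). The glucocorticoid-induced list was written with earlier results of these data known, so its counts are a description and no separate evidence.

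Detection came before any reading of repression, and the members fell into 2 sets. Probes for IL6, IL11, LIF, CCL2, CXCL2 and CXCL3 (7 probes, both of CXCL3) were well above background on 12 of 12 arrays. Those for CXCL8, CXCL1 and IL1A were so on 0 of 12 arrays, as was the other CXCL2 probe, A_23_P315364. The other LIF probe, A_24_P233488, was well above background on 1 array, and for IL1B at least 0.5 of its spots were so on 2 arrays. The test took the probes detected in this way throughout at least 1 group, 25570 in all, among them 7 of the 13 member probes, standing for 6 of the 10 genes. Their levels are given as log2 processed signal minus the array's 75th percentile, so a level of -1 means a signal at 0.5 of that percentile.

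**Figure D1:**
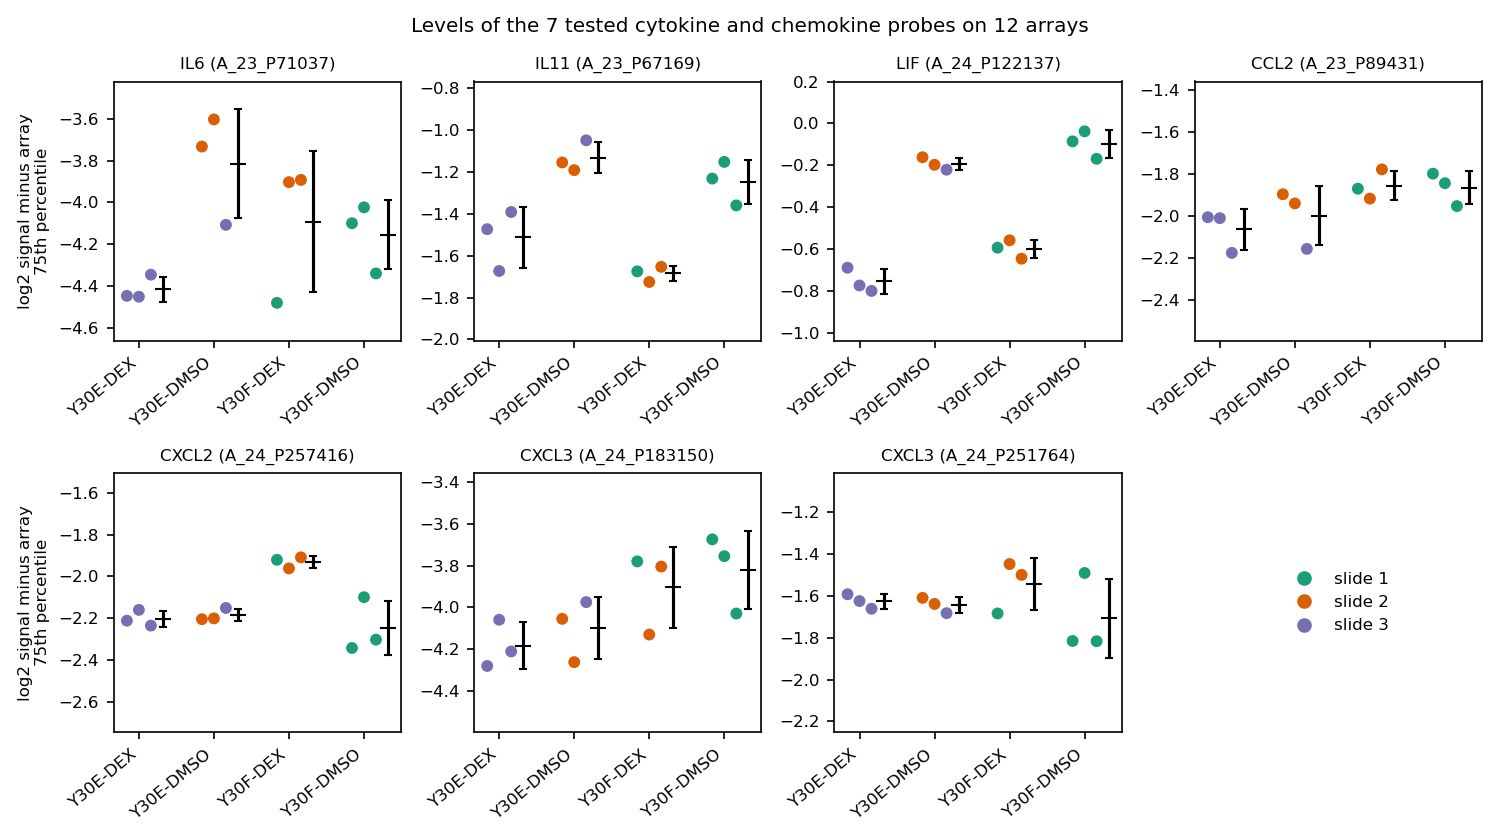
Level of each of the 7 tested probes on 12 arrays (y axis: log2 processed signal minus the array's 75th percentile, all panels spanning the same range of log2 units), coloured by slide, with group mean and SD over 3 arrays in black. LIF and IL11 lie lower in both dexamethasone groups than in their DMSO groups without overlap, and the slide 2 arrays of IL6 lie above the other arrays of their group.

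LIF, a cytokine of the IL6 family known for its role in stem cell maintenance and in the response to tissue injury, fell with both receptors. Its probe A_24_P122137 had signals of 505, 479 and 434 on the Y30E-DEX arrays, against 724, 616 and 729 on the Y30E-DMSO arrays. The signals were 556, 508 and 544 on the Y30F-DEX arrays, against 780, 793 and 779 on the Y30F-DMSO arrays. Each dexamethasone array was below each DMSO array of its mutant, on this scale and after scaling to the 75th percentile. The scaled level averaged -0.76 ± 0.06 in Y30E-DEX and -0.19 ± 0.03 in Y30E-DMSO, and -0.60 ± 0.04 in Y30F-DEX and -0.10 ± 0.07 in Y30F-DMSO (log2, SD, n = 3 each). The log2 change was -0.56 ± 0.05 in Y30E cells (SE, limma adjusted p = 0.000352), a level 32.2% lower, and -0.50 ± 0.05 in Y30F cells (adjusted p = 0.000728), 29.4% lower. Averaged over both receptors the change was -0.53 ± 0.04 (adjusted p = 1.92e-05), and 0.305% of all tested probes had a lower value.

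LIF kept the same size when arrays of 1 slide were compared. With slide as a block it fell by 0.53 in Y30E cells and by 0.50 in Y30F cells (log2), and passed in both (limma adjusted p = 0.0253 and 0.0424). These are also the sizes within slide 3 and within slide 1, where a single DMSO or dexamethasone array stood alone and neither passed (adjusted p = 0.171 and 0.338). The slide 2 arrays of Y30E-DMSO and Y30F-DEX differed from the other array of their group by 0.04 and -0.01. The other LIF probe gave no reading of repression. Its signals were 4.88, 10.7 and 4.51 in Y30E-DEX and 23.1, 17.0 and 8.34 in Y30E-DMSO, and 9.43, 19.7 and 18.2 in Y30F-DEX and 6.57, 9.62 and 6.47 in Y30F-DMSO. The 4 arrays of slide 2 held its 4 highest values, 17.0 to 23.1, against 4.51 to 10.7 on the other 8 arrays, and only the Y30E-DMSO value of 23.1 was well above background.

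IL11, a cytokine of the same family that acts on stromal and epithelial cells, also fell with both receptors. Its signals were 293, 257 and 288 in Y30E-DEX against 364, 309 and 411 in Y30E-DMSO, and 263, 226 and 271 in Y30F-DEX against 352, 366 and 341 in Y30F-DMSO. The groups did not overlap within either mutant. The log2 change was -0.38 ± 0.08 in Y30E cells (SE, limma adjusted p = 0.0415), 23.2% lower, and -0.44 ± 0.08 in Y30F cells (adjusted p = 0.0213), 26.1% lower. The average over both receptors was -0.41 ± 0.06 (adjusted p = 0.00201), and 0.641% of all tested probes had a lower value. The Y30E call held in 3 of 12 fits that each left out 1 array, with values from -0.44 to -0.30. Leaving out a Y30F array kept the Y30E value at -0.38 and changed only its error and p-value. With slide as a block the changes were -0.46 and -0.43, no smaller, but with larger errors of 0.12 neither passed (adjusted p = 0.187 and 0.210), while their average did (-0.45 ± 0.08, adjusted p = 0.0351). Without slide 2 the average did not pass (adjusted p = 0.120).

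IL6, the founding member of the family and a main inducer of the acute-phase response, passed the test in neither mutant, and its slide 2 arrays lay highest within both groups that span slides. Averaged over 10 spots, its signals were 37.3, 37.4 and 37.2 in Y30E-DEX and 60.9, 58.1 and 49.3 in Y30E-DMSO. They were 37.6, 50.1 and 57.3 in Y30F-DEX and 48.3, 50.03 and 43.3 in Y30F-DMSO. The 3 Y30E-DEX arrays lay below the 3 Y30E-DMSO arrays, whereas in Y30F cells 1 dexamethasone array was below the DMSO arrays and the other 2, both on slide 2, were above them after scaling. The log2 change was -0.60 ± 0.17 in Y30E cells and 0.06 ± 0.17 in Y30F cells, and neither passed (limma adjusted p = 0.142 and 0.922). Without Y30F-DEX replicate 1, which is not in that comparison but enters the shared spread, the Y30E value passed at the same size (adjusted p = 0.0417). Within Y30E-DMSO the slide 2 arrays were 0.44 higher than the slide 3 array, and within Y30F-DEX they were 0.58 higher than the slide 1 array.

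Slides were then taken 1 at a time for IL6. Comparing arrays of slide 3 alone gave -0.31 for Y30E, and those of slide 1 alone gave -0.33 for Y30F, which are also the values with slide as a block (SE 0.12 for each in the blocked fit, limma adjusted p = 0.540 and 0.392). The blocked average was -0.32 ± 0.08 with a 95% confidence interval from -0.51 to -0.12, and it did not pass over all probes (unadjusted p = 0.00482, adjusted p = 0.142). Without the block the average was -0.27 ± 0.12 (adjusted p = 0.361). The 10 spots of an array differed by an SD of 0.08 to 0.32 (log2), so an array's mean carried an error of up to 0.11 from its spots, while arrays of a group differed by an SD of 0.06 to 0.34.

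**Figure D2:**
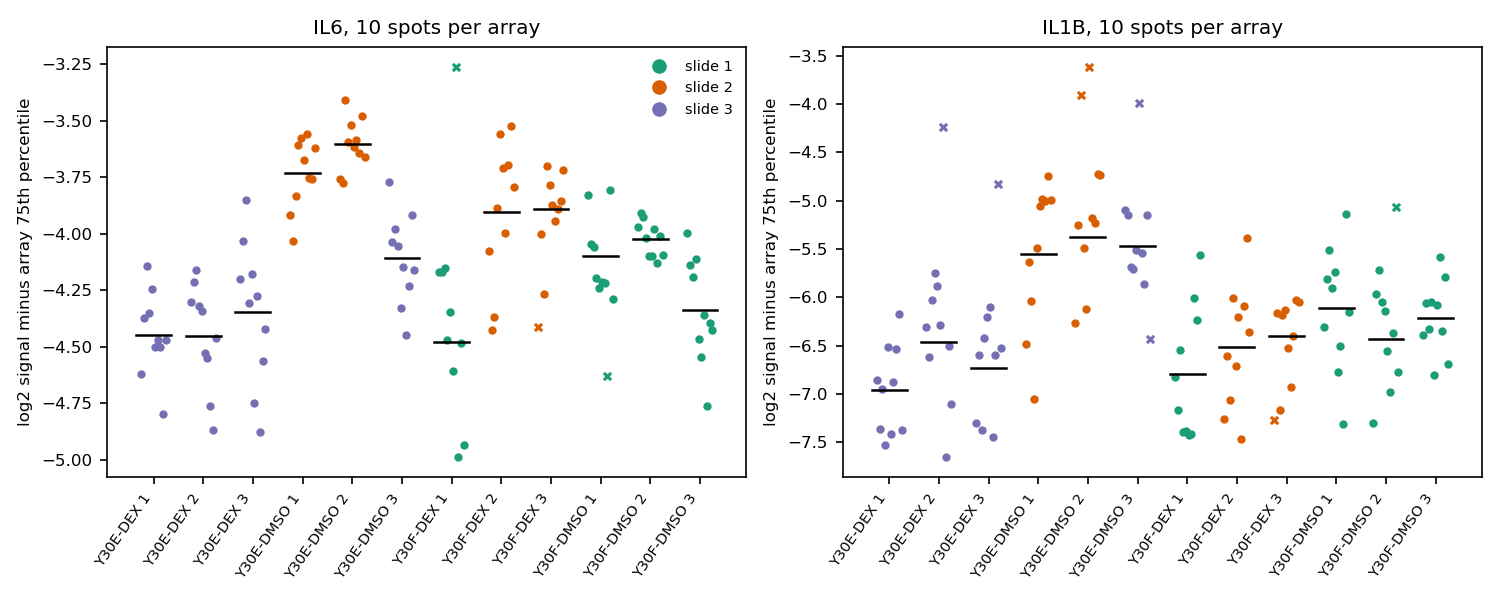
Each of the 10 spots for IL6 (left) and IL1B (right) on every array (y axis: log2 processed signal minus the array's 75th percentile), coloured by slide, with the array mean as a black bar and outlier spots, left out of the mean, as crosses. For IL6 the bars of slide 2 lie high in Y30E-DMSO and Y30F-DEX alike; for IL1B the 3 Y30E-DMSO bars lie above all others.

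**Figure D3:**
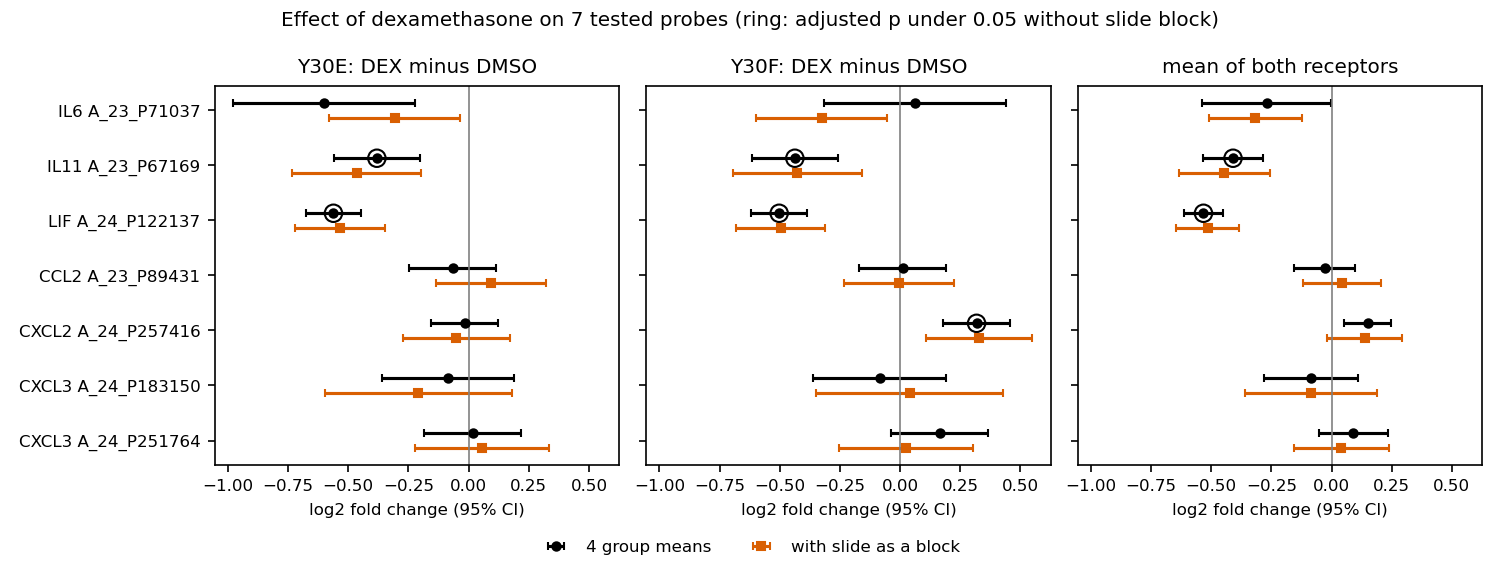
Log2 fold change with dexamethasone (x axis, with 95% confidence interval) of the 7 tested probes in Y30E cells, in Y30F cells and averaged over both receptors, without (black circles) and with (orange squares) slide as a block. Rings mark an adjusted p under 0.05 without the block. LIF and IL11 are ringed in all 3 panels, CXCL2 only for Y30F, and the IL6 estimates of the mutants meet once slide is a block.

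CCL2, the main monocyte attractant of the list, showed no change past the test. Averaged over 10 spots its signals were 203, 203 and 167 in Y30E-DEX and 217, 184 and 190 in Y30E-DMSO, and 230, 198 and 248 in Y30F-DEX and 238, 227 and 226 in Y30F-DMSO. The groups overlapped in both mutants. The log2 change was -0.07 in Y30E cells (95% confidence interval from -0.25 to 0.11) and 0.01 in Y30F cells (-0.17 to 0.19), with limma adjusted p = 0.774 and 0.979. The interval of the average, from -0.16 to 0.10, leaves out a change of the size measured by the LIF or IL11 probes. Whether these probes follow changes of the monkey transcripts equally well was not tested. Its 10 spots varied by an SD of 0.05 to 0.09 within an array, so arrays, with an SD of 0.07 to 0.14 within groups, set its error.

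The neutrophil chemokines CXCL2 and CXCL3 did not fall past the test on any of their 3 detected probes. CXCL2 (A_24_P257416) had signals of 222, 192 and 227 in Y30F-DEX against 163, 190 and 178 in Y30F-DMSO, and after scaling the groups did not overlap. It rose there by 0.32 ± 0.06 (log2, SE, limma adjusted p = 0.0328), 1.25-fold. This call held in 10 of 28 alternatives, with values from 0.19 to 0.39. Of the 12 fits that each left out 1 array, those without Y30E-DMSO replicate 3, Y30F-DEX replicate 1 or Y30F-DMSO replicate 2 kept it. The other 9 did not (limma adjusted p from 0.0502 to 0.141), with values from 0.27 to 0.39 over the 12 fits. Leaving out a Y30E array kept the Y30F value at 0.32 and changed only its error and p-value. With slide as a block the rise was as large, 0.33, and did not pass (adjusted p = 0.252). In Y30E cells its signals were 176, 183 and 161 with dexamethasone and 176, 154 and 191 with DMSO, a change of -0.02 (95% confidence interval from -0.16 to 0.12, adjusted p = 0.942). The other CXCL2 probe, with signals of 4.70 to 6.65, could not be read.

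The probes of CXCL3 gave values on both sides of 0, none past the test. A_24_P251764 had signals from 227 to 301, with a log2 change of 0.02 in Y30E cells (95% confidence interval from -0.18 to 0.22) and 0.16 in Y30F cells (-0.04 to 0.37). A_24_P183150 had signals from 36.8 to 64.8, with changes of -0.09 in both mutants (from -0.36 to 0.19 for each). The levels of these 2 probes had a correlation of -0.13 over the 12 arrays, whereas A_24_P251764 and the CXCL2 probe had 0.68. This is a description over arrays that share slides and groups. CXCL1, CXCL2 and CXCL3 are close paralogs, and cross-hybridisation between their probes was not tested.

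IL1B, the secreted inflammatory form of IL1, was dim, and its array means did not overlap between the Y30E groups. Its mean signals were 6.56, 9.31 and 7.12 in Y30E-DEX against 17.3, 17.0 and 19.2 in Y30E-DMSO, and 7.55, 8.19 and 10.1 in Y30F-DEX against 11.95, 9.47 and 11.8 in Y30F-DMSO. The Y30E groups did not overlap and the Y30F groups did, before and after scaling. Among the tested probes, which leave IL1B out, 11.7% were lower and 10.5% higher in Y30E-DEX without overlap. The share among probes as dim as IL1B was not taken. Of 30 spots in each group, 2 were well above background in Y30E-DEX, 12 in Y30E-DMSO, 0 in Y30F-DEX and 1 in Y30F-DMSO. Leaving out outlier spots, 9 remained, 5 and 4 on the Y30E-DMSO arrays of slide 2 and 0 on every other array. An array's lowest spot well above background had a signal of 17.5 to 26.0. In Y30E-DMSO it was 18.9 and 17.5 on the slide 2 arrays and 21.5 on the slide 3 array. No array of the dexamethasone groups, and no Y30F-DMSO array, reached 0.5 of IL1B spots well above background. No fold or log2 difference is therefore given, and the probe was not among the 25570 tested.

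When the filter was dropped and all 41000 probes were fitted, IL1B passed for Y30E (limma adjusted p = 0.00466) and for the average of both receptors (adjusted p = 0.00402), lower with dexamethasone, and not for Y30F (adjusted p = 0.543). Of the 41000 probes, 302 passed for Y30E and 639 for the average. None of the other member probes outside the filter passed. These p-values compare signals mostly at background and carry no size. The 2 arrays on which IL1B counted as detected were both Y30E-DMSO arrays of slide 2, from the group with the higher signal. IL1B was followed further only after its values were seen, so the fits below give no separate support for a fall. The Y30E p-value ranged from 0.00521 to 0.0263 over 12 fits that each left out 1 array, and was 0.0472 with slide as a block (limma, adjusted). It did not pass without slide 2 (adjusted p = 0.172) or after normexp background correction with an offset of 50 (adjusted p = 0.361). The difference between the mutants' effects did not pass (adjusted p = 0.379).

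**Figure D4:**
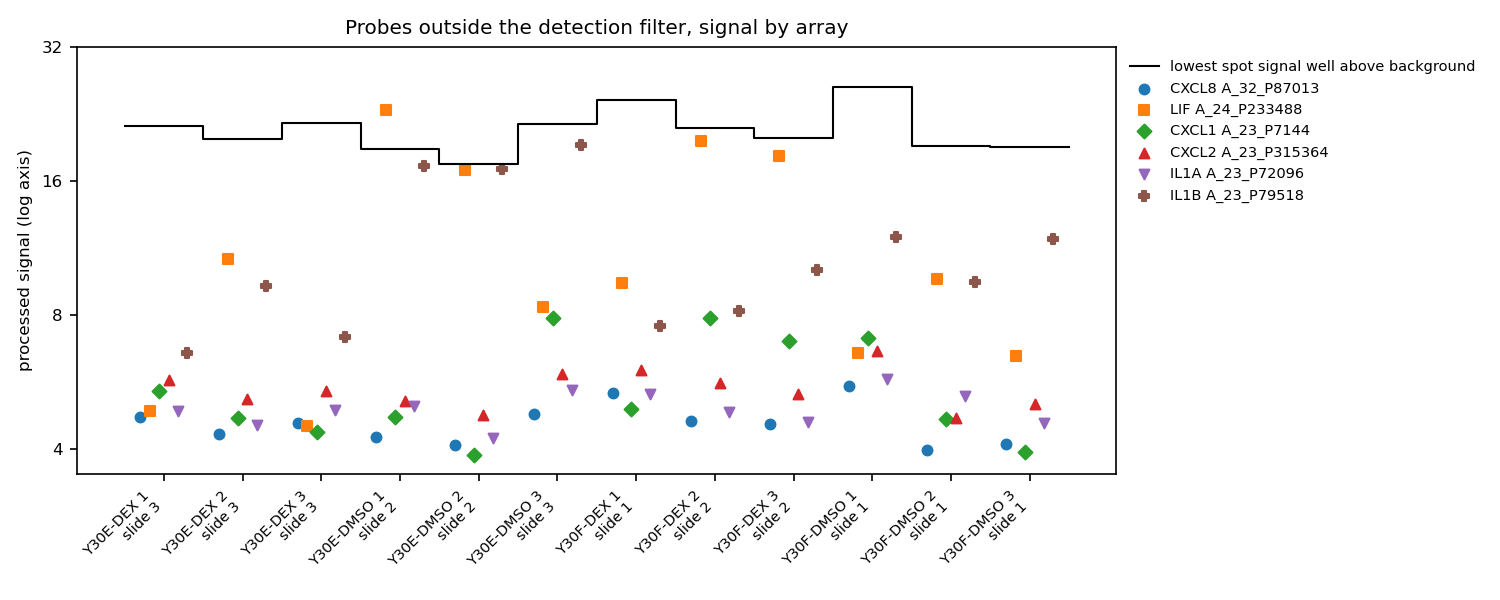
Processed signal (y axis, log scale) of the 6 member probes outside the detection filter on each of 12 arrays, with the lowest spot signal that was well above background on that array as a black line. CXCL8, CXCL1, IL1A and the dim CXCL2 probe lie between 3.87 and 7.89, far under the line, while IL1B in Y30E-DMSO and the dim LIF probe on slide 2 come near it.

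CXCL8, CXCL1 and IL1A were not detected on any array, so these data hold no reading of their repression. CXCL8, the prototype neutrophil chemokine, had signals from 4.32 to 4.73 in Y30E-DEX and 4.09 to 4.80 in Y30E-DMSO, and 4.55 to 5.34 in Y30F-DEX and 3.97 to 5.55 in Y30F-DMSO. CXCL1 ranged from 3.87 to 7.89 over the 12 arrays. IL1A, the cell-associated form of IL1, ranged from 4.24 to 5.76 as means of 10 spots, with 0 of 120 spots well above background. Whether the human probes match the monkey transcripts was not tested, so a low signal does not show that a gene was silent.

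Read together for Y30E cells, 2 of 7 tested member probes fell (LIF and IL11) and 0 rose, where 1.98% of all tested probes passed, 0.591% lower and 1.39% higher. Arrays did not overlap for 3 of the 7 (LIF, IL11 and IL6), all lower with dexamethasone. Among all tested probes 11.7% were lower and 10.5% higher without overlap. In Y30F cells 2 fell (LIF and IL11) and 1 rose (CXCL2), against 0.375% lower and 1.27% higher, 1.65% in all, among the tested probes. There LIF and IL11 were lower and CXCL2 higher without overlap, against 5.69% lower and 9.6% higher among all tested probes. For the average of both receptors 2 of 7 fell and 0 rose, against 1.06% lower and 2.51% higher, 3.57% in all. The median average change of the 7 probes was -0.09, and that of all tested probes 0.01 (log2).

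**Figure D5:**
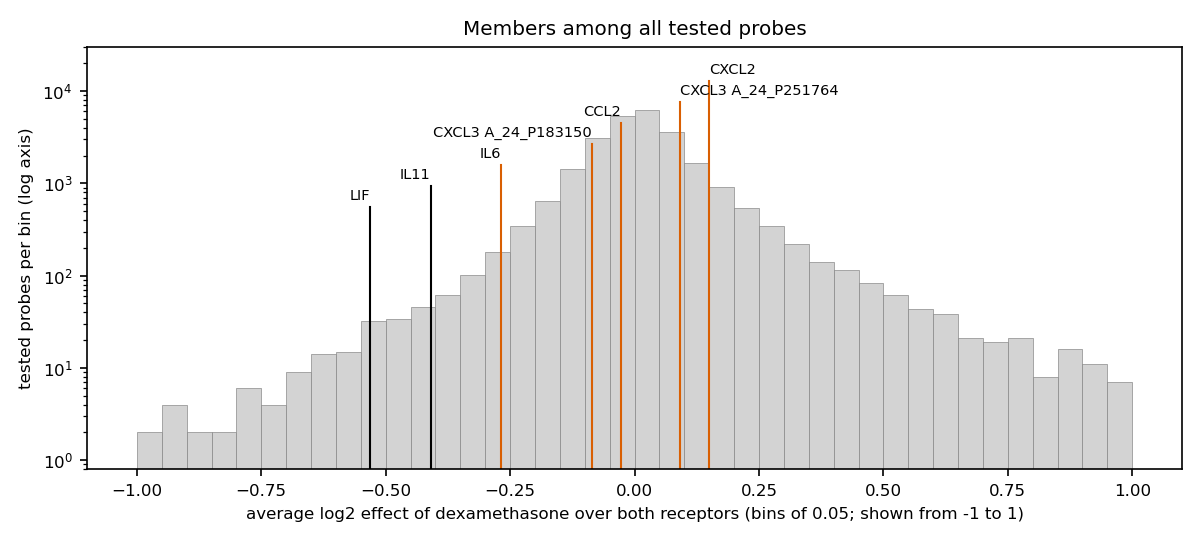
Number of tested probes (y axis, log scale) by log2 change with dexamethasone averaged over both receptors (x axis, in bins of 0.05, shown from -1 to 1), with the 7 member probes as vertical lines of arbitrary height, black for those past the test. LIF and IL11 lie in the lower tail and the chemokine probes near the centre.

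Whether the mutants differed in these responses was tested in the same fit, by subtracting the Y30F effect from that in Y30E cells. None of the 7 member probes passed, where 0% of all 25570 tested probes did (limma, 2777 with an unadjusted p under 0.05, among them IL6 and CXCL2). For LIF the difference was -0.06 with a 95% confidence interval from -0.22 to 0.10, and for IL11 it was 0.06 (-0.20 to 0.31). For CXCL2 it was -0.33 ± 0.09 (adjusted p = 0.328), and -0.38 ± 0.14 with slide as a block (adjusted p = 0.924). For IL6 it was -0.66 ± 0.24 without the block (adjusted p = 0.371) and 0.02 ± 0.17 with it (adjusted p = 0.999). The blocked value rests on a single Y30E-DMSO and a single Y30F-DEX array, and the part of slide in the IL6 difference was not tested. Without Y30F-DEX replicate 1, the slide 1 array of its group, the IL6 difference was -0.86 and passed (adjusted p = 0.0306). In that fit 1262 of all 25570 tested probes passed for the difference, against 0 in the main fit, so the call is not particular to IL6.

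Y30E was also set against Y30F under the same treatment. Under dexamethasone none of the 7 probes passed by limma (4 had an unadjusted p under 0.05), against 0% of all tested probes (3460 with an unadjusted p under 0.05), though LIF, CCL2 and CXCL2 were lower in Y30E-DEX than in Y30F-DEX without overlap (10.1% of all tested probes were lower and 10.5% higher). Their differences were -0.16 ± 0.05, -0.21 ± 0.08 and -0.27 ± 0.06 (log2, SE, limma adjusted p = 0.273, 0.318 and 0.196). With slide as a block they were -0.11, 0.02 and -0.32, and none passed. Under DMSO none of the 7 passed (1 had an unadjusted p under 0.05), against 0.00782% of all tested probes, and none was without overlap, against 13.4% higher and 5.82% lower in Y30E-DMSO than in Y30F-DMSO. No slide held both mutants under the same treatment, so there is no value within a slide for these comparisons.

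Other genes of the same pathways were followed through lists of records. Among all tested probes, 0.591% fell and 1.39% rose in Y30E cells, and 0.375% fell and 1.27% rose in Y30F cells (limma). An unadjusted p under 0.05 was found for 3561 of all 25570 tested probes in Y30E cells and for 3298 in Y30F cells. Of 15 tested probes for other cytokines and chemokines, 1 fell in Y30E cells (NM_000614, -0.27 ± 0.05) and 1 in Y30F cells (NM_002996, -0.33 ± 0.06, log2, SE), and none rose. Their median change was -0.13 in Y30E and 0.00 in Y30F cells, against -0.01 and 0.02 for all tested probes. Of 27 tested probes for receptors and signal transducers of these cytokines, none passed in either mutant by limma (2 in Y30E and 6 in Y30F cells had an unadjusted p under 0.05). Of 15 tested probes for NF-kappaB targets, 3 fell and 1 rose in Y30E cells, and 2 fell and 1 rose in Y30F cells. Among these NM_006290 fell by 0.45 in Y30E cells and by 0.47 in Y30F cells (limma adjusted p = 0.0114 and 0.00967), while NM_020529 rose by 0.66 and 0.62 (adjusted p = 0.0111 and 0.0152). On average over both mutants 3 probes of this list fell and 1 rose, and 11 did not pass, against 1.06% lower and 2.51% higher among all tested probes.

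The records whose levels followed those of LIF and IL11 over the 12 arrays were looked up among 18400 records detected on every array. NM_003897 and NM_002506 had a Pearson correlation with LIF of 0.99 each, and NM_003315 had one with IL11 of 0.96. LIF and IL11 themselves had 0.78, and 0.20 once each group's mean was taken out. These are descriptions over arrays that share slides, treatments and scaling.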

How the data were processed

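The deposited intensity came from Agilent Feature Extraction 12.0.0.7, which subtracted background and removed spatial trends array by array. Per the file headers, no step made arrays comparable with each other. The labels' protocols give 500 ng of total RNA per Cy3 labelling. Spot flags (well above background, saturated, outlier) are other deposited columns, per the file headers. The series table held the same intensity, with 0 spot values differing. Groups came from the titles. A further label names a single construct for each mutant while the descriptions name both, and the descriptions were followed.

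Non-control spots without outlier flags were taken as log2 minus the array's 75th percentile and averaged per probe. A probe counted as detected on an array where 0.5 or more of its spots had the well-above-background flag, and was tested if detected throughout 1 or more groups. The test was limma 3.58.1 (R 4.3.3, statmod 1.5.0) on 4 group means over 12 arrays with 8 residual degrees of freedom, adjusted by Benjamini-Hochberg over 25570 probes at a threshold of 0.05. A probe past it is said to rise or fall. The number of arrays limits the precision: the median standard error of an effect was 0.08 (log2). On simulated data for the Y30E effect (25570 probes, 200 changed), log2 changes of 0.5 were recovered in 63.2% of cases and of 1 in 88.9%, with 5.33% false calls. The alternatives were other scalings, background correction, the series table, filters, outlier spots kept, 1 probe per record and slide as a block. Others were single slides, slide 2 left out, the replicate block, the compared groups alone, other priors, array weights and leaving out each array. Normexp used the median signal. The unfiltered values of IL1B with the slide block, without slide 2, with normexp and with each array left out were added after seeing the data. The members, the lists and these choices were made with earlier results of these data known. Lists were written by RefSeq record, from general knowledge. Named records are all members, the records of each list past the test with the smallest adjusted p (at most 2 per direction here) and the records with the highest correlation to a member.

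Same-numbered arrays of different groups did not deviate together (correlations of deviations from -0.42 to 0.26, over 0.1 in 2 of 18 pairs), and the main fit did not pair them. Most of these pairs lay on different slides, so the correlations cannot decide whether same-numbered arrays shared a culture or a day.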

Additional observations from a re-analysis of the deposited data

Results flagged for a closer look

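The dim LIF probe A_24_P233488 was well above background on 1 of 12 arrays. Its 3 dexamethasone arrays were all below the DMSO mean in Y30E cells (-1.283, log2) and all above it in Y30F cells (1.063), which is why it is listed. These values compare signals at background and are not sizes of a change. In the main processing the difference was not tested, and without the filter it did not pass (limma adjusted p = 0.469). Slide 2 held the 4 highest values of the probe, and its part in the pattern was not tested.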

How the results depend on the processing

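Of the log2 changes of the 7 tested member probes under the alternatives, 1063 of 1128 stayed on the same side of the threshold, 49 lost their call, 16 gained one and 0 called values changed sign. Most of the 1128 belong to values not called in the main processing. All 49 losses fell on the called values of LIF, IL11 and CXCL2. LIF passed on average over both receptors in 26 of 26 alternatives, and in 26 of 28 for each mutant. IL11 passed in 25 of 26 for the average, but in 12 of 28 for Y30E and 18 of 28 for Y30F. CXCL2 passed in 10 of 28 for Y30F. The counts that follow are over those 7 probes. Without the filter IL1B, outside them, also passed for Y30E and for the average, which makes 2 and 3 member probes there. For Y30E the number past the test, 2 in the main processing, was 1 with median centring, no filter, slide as a block, the replicate block and the compared groups alone, and 0 within slide 3 and without slide 2. For Y30F it was 3, and 2 with quantile normalization, median centring and the trend and robust prior, 1 with no filter, the slide block, the replicate block and the compared groups alone, and 0 within slide 1 and without slide 2. For the average it was 2, and 1 without slide 2. With array weights the numbers were 4 for the average, 5 for Y30F, 2 for the difference of the effects, 5 between the mutants under dexamethasone and 1 under DMSO. Array weights gave 3 for Y30E. Leaving out 1 array gave 1 to 2 for Y30E, 1 to 3 for Y30F, 2 to 3 for the average, 0 to 1 for the difference and 0 for both comparisons between mutants. With the slide block or within a slide, each effect rests on fewer arrays by construction. Other causes were not tested. Median centring shifts all log2 changes by 0.05 in Y30E and by -0.13 in Y30F, and the share of calls that were higher in Y30F was 46.1% with it, 62.4% with quantile normalization and 77.2% in the main processing. It also shifts the difference of the effects by 0.18 and the comparison under DMSO by -0.18, where 1447 probes passed (12.2% higher) against 2 (100% higher), and 3 with quantile normalization (33.3% higher). Over all probes the slide block gave 229 calls against 506 for Y30E, 150 against 421 for Y30F and 445 against 913 for the average. It gave 23 for the difference and 24 under dexamethasone, both 0 without it. For Y30E, 410 passed with median centring, 302 with no filter, 365 with the replicate block and 350 with the compared groups alone. For Y30F these settings gave 319, 291, 322 and 160, quantile normalization 394, and the trend and robust prior 440. Fits without 1 array gave 220 to 667 for Y30E, 252 to 1488 for Y30F and 654 to 1005 for the average. Within a slide and without slide 2, dexamethasone calls were also fewer over all probes. Array weights gave 3890, 5915, 3382, 4659, 7240 and 2498 over the 6 comparisons. Without Y30F-DEX replicate 1, 1262 probes passed for the difference and 1488 for Y30F. The replicate block, which treats same-numbered arrays as belonging together, left 1 call in each mutant, LIF in both, and 2 for the average. The groups compared alone equal the main fit for the average and the difference, so no other value exists there. The array signals of CXCL8, CXCL1, IL1A and IL1B lay under the lowest spot signal well above background on every array, which limits their reading. Why they were low was not tested.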
